A study of Mus musculus with 6 samples.

Results

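Retinoid genes were examined as a set of 9: the receptors Rara, Rarb and Rarg, the retinoic acid synthases Aldh1a1, Aldh1a2 and Aldh1a3, the retinoic acid carrier Crabp1, and Rarres1 and Rarres2, which are named for their response to retinoic acid receptor agonists. They were taken by symbol from a table of 16874 genes, and all 9 had a row. RNA had been sequenced from fibroblasts grown from the colon of C57BL/6 mice 12 weeks old, in medium with serum. There were 3 libraries labelled Prkcz-/-, which lack by label the atypical protein kinase C zeta gene, and 3 labelled WT. No agent was given, and the cells were collected 24 h after plating. The series' design text also speaks of scrambled and Sox2 guides, but the labels of these 6 libraries give the genotype alone, so the presence of a guide is not known here. It calls the replicates biological, but no label ties a library to its own mouse or culture, so p-values measure the spread between these libraries, which may be technical.

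Values are FPKM, which relate reads to gene length and depth, and levels of different genes are compared on that scale. The steps between low values put the depth of a library at 12900000 to 14700000 reads. The targeted gene went against the labels: Prkcz measured 1.35, 1.32 and 1.17 FPKM in the libraries labelled Prkcz-/-, against 0.0433, 0.144 and 0.202 FPKM in those labelled WT. Directions below therefore compare the labels and nothing more. Of the 9 fibroblast markers, 5 were higher and 4 lower (limma adjusted p under 0.05), beside 31.5% and 37.2% of all tested genes. Their sum was 6881 to 7167 FPKM in the libraries labelled Prkcz-/- and 5363 to 5648 FPKM in WT. Single markers differed more than the sum. Dcn averaged 5.34 FPKM in the libraries labelled Prkcz-/- against 49.1 FPKM in WT, and Lum 0.0921 against 3.39 FPKM. Pdgfrb, among the 5 higher, averaged 99.6 FPKM in the libraries labelled Prkcz-/- against 35.0 FPKM in WT. The 9 epithelial markers summed to 1.11 to 1.89 FPKM in the libraries labelled Prkcz-/-, against 1.73 to 2.45 FPKM in WT, and the 8 immune markers to 2.21 to 3.26 FPKM in the libraries labelled Prkcz-/- and 2.18 to 3.19 FPKM in WT. The 6 endothelial markers stayed under 1 FPKM in sum in each library, and both Cdh5 and Emcn had 0 in all 3 libraries labelled Prkcz-/- and in 2 of the 3 WT libraries. The pan-leukocyte gene Ptprc was listed at 0 in 5 of the 6 libraries, and Cd3e and Lyve1 had no row. The 7 mesothelial markers summed to 0.539 to 0.945 FPKM in the libraries labelled Prkcz-/- and 5.33 to 5.96 FPKM in WT. Msln, the only one of them that was tested, was lower, at a mean of 0.131 FPKM in the libraries labelled Prkcz-/- against 5.44 FPKM in WT. The other 3 measured ones, Upk1b, Wt1 and Krt7, were under the filter with each library labelled Prkcz-/- above each WT library, and Upk3b, Lrrn4 and Muc16 had no row. The 8 markers of enteric glia and neurons summed to 56.3 to 58.6 FPKM in the libraries labelled Prkcz-/-, against 23.5 to 27.4 FPKM in WT, mostly from Tubb3 and Uchl1, while the glial factor Sox10 was listed at 0 in 4 of the 6 libraries. The 8 smooth muscle and pericyte markers summed to 2033 to 2116 FPKM in the libraries labelled Prkcz-/-, against 1638 to 1781 FPKM in WT, mostly from Acta2. Of 7 tested, 3 were higher, and Cspg4 and Actg2 were lower, Actg2 at a mean of 52.9 FPKM in the libraries labelled Prkcz-/- against 461 FPKM in WT. The 5 adipocyte markers, of which 2 had a row, stayed under 1 FPKM in sum. The part of these markers in the differences described next was not tested.

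Retinoic acid is made inside cells from vitamin A. Retinol is oxidised to retinal, and ALDH1A enzymes turn retinal irreversibly into retinoic acid. CRABP proteins carry the acid, which binds RAR receptors paired with RXR on DNA, and CYP26 enzymes remove it. In the gut, retinoic acid made by stromal, epithelial and dendritic cells is known for shaping local immunity, among other things by inducing gut-homing receptors on lymphocytes.

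RAR and RXR dimers are known to bind direct repeats of a hexamer, and a well-known element of this kind lies in a Rarb promoter. Promoter windows from RefSeq (build GRCm38.p6, 250 bases before to 50 after a gene start) were searched on both strands for 2 hexamers in the same direction with 1, 2 or 5 bases between. A hexamer was AGGTCA, the common core, or the variant AGTTCA that both printed repeats hold, or else GGGTCA with only its first base changed, or finally GGTTCA with both changes, in any combination. Windows were found for 7 of the 9 genes, and Rarb was the single gene among these 7 whose window held a repeat, with 5 bases between, at -53 to -37 from a start that lies inside the annotated gene. That spacing was found in 0.0974% of all 32851 windows. Spacings of 1 and 2 were found in 0.222% and 0.268% of all windows and in no window of these 7 genes. Among 49 other retinoid genes with a window, Cyp26a1 held a repeat with 5 bases between, on the strand opposite to the gene, and Bco1 held one with 1 base between. The Rarb and Cyp26a1 repeats had 15 of 17 bases in common and differed by G1A and G9C, counted from the 5′ end of the repeat with the Rarb base first. The 4 stretches are printed because they show the Rarb element beside its closest counterpart, and the 2 members with the highest fold, whose windows hold no repeat. Capitals mark every hexamer match on either strand, and each stretch ends at the base before the gene start, except that of Cyp26a1, which is turned to the strand of its repeat and so begins there.
Rarb, chr14:16575477-16575726, minus strand: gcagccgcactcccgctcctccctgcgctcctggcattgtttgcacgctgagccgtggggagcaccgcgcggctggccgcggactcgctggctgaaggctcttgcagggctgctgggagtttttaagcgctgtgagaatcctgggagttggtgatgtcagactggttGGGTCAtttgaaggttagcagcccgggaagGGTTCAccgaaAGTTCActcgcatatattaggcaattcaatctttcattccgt
Cyp26a1, chr19:37697748-37697807, minus strand: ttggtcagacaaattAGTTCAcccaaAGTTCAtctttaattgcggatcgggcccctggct
Rarres1, chr3:67515524-67515773, minus strand: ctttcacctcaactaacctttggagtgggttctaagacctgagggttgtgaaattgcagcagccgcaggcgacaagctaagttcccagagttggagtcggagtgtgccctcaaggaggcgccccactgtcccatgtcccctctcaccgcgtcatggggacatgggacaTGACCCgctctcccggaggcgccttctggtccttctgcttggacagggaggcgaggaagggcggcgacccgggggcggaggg
Crabp1, chr9:54764498-54764747, plus strand: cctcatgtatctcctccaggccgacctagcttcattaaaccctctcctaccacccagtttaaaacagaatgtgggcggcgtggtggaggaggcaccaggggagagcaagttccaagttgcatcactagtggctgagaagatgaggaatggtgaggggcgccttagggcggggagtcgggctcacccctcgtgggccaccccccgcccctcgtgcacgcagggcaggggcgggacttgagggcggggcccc
A match describes letters in the window, and a window without one says nothing about binding elsewhere. Rarres1 held 1 hexamer and Crabp1 none, where 43.7% of all windows held at least 1.

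The comparison of the 2 labelled groups asks which genes differ between the fibroblasts labelled Prkcz-/- and WT. Of the 9 retinoid genes, 7 reached a mean of 0.5 FPKM over the 6 libraries and were tested within a limma fit over 12130 genes (log2 of FPKM + 0.5, Benjamini-Hochberg adjusted p under 0.05). Of these 7, Rarres1, Crabp1, Rarb, Aldh1a3, Rarg and Rara were higher in the libraries labelled Prkcz-/-, 0 were lower, also at an unadjusted p under 0.05, and Aldh1a1 was not called. Across all tested genes 68.7% were called, 31.5% as higher and 37.2% as lower, so a call as such was common. A log2 change of at least 1 was rarer over all tested genes, with 7.29% called higher and 3.55% lower by it. Of the 7, 5 were called higher by that much and 0 lower. The 9 genes were chosen with earlier results of these data known, so their counts beside these shares describe the set and test nothing. The groups did not overlap for 6 of the 7, all with the libraries labelled Prkcz-/- above, where 72.7% of all tested genes did not overlap, 33.3% with those libraries above and 39.4% with them below. Rarres1 and Aldh1a3 averaged under 0.5 FPKM in WT and passed the filter only through the other group, which favours a call for them. Rarres2 and Aldh1a2 were not tested, and their groups overlapped, whereas of all 4744 genes under the filter 18.0% had the libraries labelled Prkcz-/- above and 6.58% had them below. In bulk RNA, fewer cells of a type and less RNA per cell cannot be told apart. All 6 calls held under each of the 15 other settings, and the two-sided exact permutation p was 0.1 for these 6, which is the least that 3 libraries against 3 can reach.

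**Figure D1:**
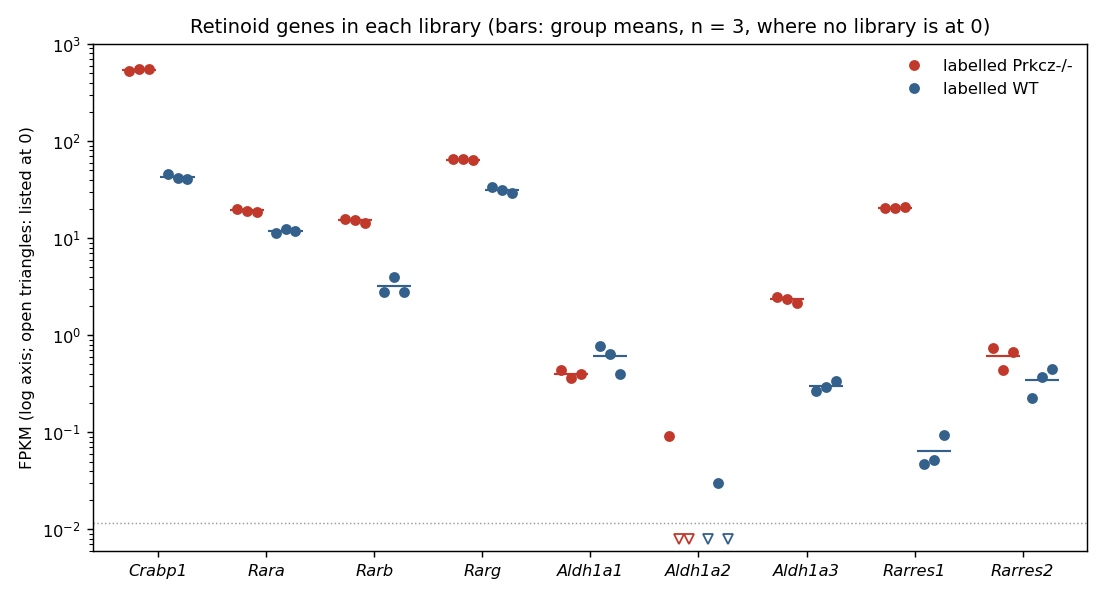
FPKM of the 9 retinoid genes on a log axis, with 1 point per library (red, labelled Prkcz-/-, left of blue, labelled WT), bars at group means where no library is at 0, and open triangles for values listed at 0. The groups are apart for Crabp1, Rara, Rarb, Rarg, Aldh1a3 and Rarres1 and overlap for Aldh1a1, Aldh1a2 and Rarres2.

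Crabp1 encodes a cytosolic protein that binds retinoic acid and is linked to its sequestration and breakdown. It was the most abundant of the set in both groups, at 525, 555 and 548 FPKM in the libraries labelled Prkcz-/-, against 45.7, 41.6 and 40.7 FPKM in WT. Each library labelled Prkcz-/- lay above each WT library. Its means of 543 ± 16.1 FPKM in the libraries labelled Prkcz-/- and 42.7 ± 2.65 FPKM in WT (SD, n = 3 each) were 12.7-fold apart, and the log2 change was 3.65 with an SE of 0.049 (limma adjusted p = 2.74e-09). Crabp1 lies on the plus strand of chromosome 9 (54764748 to 54773110, GENCODE M21 on GRCm38) and overlaps no other annotated gene. Its relative Crabp2, which delivers retinoic acid to RAR in the nucleus, was a named gene of the uptake and transport list and moved the same way. Crabp2 measured 19.7, 21.8 and 22.1 FPKM in the libraries labelled Prkcz-/- and 1.21, 0.537 and 0.728 FPKM in WT, and its log2 change was 4.06 (SE 0.17, limma adjusted p = 3.89e-07). Crabp1 made up 96.2% ± 0.126 of the summed CRABP FPKM in the libraries labelled Prkcz-/- and 98.1% ± 0.663 in WT (SD, n = 3 each). Fabp5, a fatty acid carrier that can pass retinoic acid to PPAR delta, fell, with 50.5 ± 0.217 FPKM in the libraries labelled Prkcz-/- and 74.3 ± 1.01 FPKM in WT (SD, n = 3 each; log2 change -0.55, SE 0.030, limma adjusted p = 1.73e-06).

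All 3 receptor genes rose, and Rarb, which is itself a well-known target of retinoic acid, rose most. Rarb measured 15.8, 15.3 and 14.5 FPKM in the libraries labelled Prkcz-/-, against 2.79, 3.97 and 2.81 FPKM in WT, where the second library was the high one. The means of 15.2 ± 0.680 FPKM in the libraries labelled Prkcz-/- and 3.19 ± 0.675 FPKM in WT (SD, n = 3 each) put the log2 change at 2.10 (SE 0.12, limma adjusted p = 2.23e-06). Rarb spans chromosome 14 from 16430839 to 16819156 on the minus strand, and Top2b and the gene model Gm48162 overlap that span on the other strand. Counting without strand would mix their reads where exons overlap, and whether exons overlap was not checked. Top2b averaged 50.5 FPKM in the libraries labelled Prkcz-/- and 60.4 FPKM in WT, and fell by 0.26 on the log2 scale (limma adjusted p = 7.63e-04). Rarg, a receptor typical of skin and connective tissue, was the most abundant RAR gene in both groups. It measured 65.2, 65.0 and 63.4 FPKM in the libraries labelled Prkcz-/- and 33.2, 31.1 and 29.4 FPKM in WT, and rose by 1.04 on the log2 scale (SE 0.048, limma adjusted p = 7.34e-07). Rara, the most widely expressed receptor of the family, rose least, with 20.1, 19.0 and 18.8 FPKM in the libraries labelled Prkcz-/-, against 11.2, 12.3 and 11.7 FPKM in WT (log2 change 0.70, SE 0.051, limma adjusted p = 9.54e-06). No library of either group overlapped the other group for any of the 3 receptors. Rarg occupies 102234938 to 102257517 of chromosome 15 (minus strand), and Rara 98927818 to 98974942 of chromosome 11 (plus strand).

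The summed RAR level was 101.1, 99.4 and 96.65 FPKM in the libraries labelled Prkcz-/- and 47.2, 47.3 and 43.9 FPKM in WT, a ratio of means of 2.15. Rarb made up 15.4% ± 0.340 of it in the libraries labelled Prkcz-/- and 6.90% ± 1.31 in WT (SD, n = 3 each). Rara made up 19.5% ± 0.382 in the libraries labelled Prkcz-/- and 25.4% ± 1.54 in WT, and Rarg 65.1% ± 0.602 in the libraries labelled Prkcz-/- and 67.7% ± 2.44 in WT. The Rarb and Rara shares did not overlap between the groups, and the Rarg shares nearly met, with 65.56% as the highest in the libraries labelled Prkcz-/- and 65.66% as the lowest in WT.

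The ALDH1A synthases were expressed at low levels, and the member that differed was Aldh1a3. Aldh1a3 measured 2.49, 2.39 and 2.13 FPKM in the libraries labelled Prkcz-/-, against 0.265, 0.293 and 0.335 FPKM in WT, which is roughly 140 to 162 reads in the libraries labelled Prkcz-/- and 17.5 to 22.1 reads in WT by annotated exon length. Its log2 change was 1.83 (SE 0.11, limma adjusted p = 3.60e-06), which understates a 7.85-fold ratio of means because 0.5 FPKM was added. Its gene (chromosome 7, 66390890 to 66427517, minus strand) overlaps no other annotated gene. Aldh1a1, the relative known in many stem and stromal cells, measured 0.443, 0.360 and 0.402 FPKM in the libraries labelled Prkcz-/- and 0.771, 0.648 and 0.401 FPKM in WT. The third WT library fell inside the range of the other group, and the difference was not called (log2 change -0.28, SE 0.17, limma adjusted p = 0.166; exact permutation p = 0.3). Without that WT library it passed the threshold (limma adjusted p = 0.0465), as it did with quantile normalization (0.00536). Its mean over all libraries was 0.504 FPKM and it passed the filter only through WT, where it was higher, which favours a call as lower, and it left the test without WT replicate 1 or WT replicate 2. Its neighbour and near copy Aldh1a7 measured 0.0304 to 0.148 FPKM over the 6 libraries, and reads may be split between the copies. Aldh1a2, the main synthase of embryonic mesenchyme, was listed at 0 in 2 libraries of each group. It measured 0.0906 FPKM in library 1 labelled Prkcz-/- and 0.0303 FPKM in WT library 2, which step as 3 reads to 1, so a difference was not detectable at this depth. Aldh1a1 lies on chromosome 19 (20492715 to 20643465) and Aldh1a2 on chromosome 9 (71215789 to 71296243), both on the plus strand.

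Aldh1a3 made up 84.5% ± 2.28 of the summed ALDH1A FPKM in the libraries labelled Prkcz-/- and 33.7% ± 10.5 in WT, and Aldh1a1 14.6% ± 1.41 in the libraries labelled Prkcz-/- and 65.2% ± 10.1 in WT (SD, n = 3 each). The leading synthase by level was thus Aldh1a3 in each library labelled Prkcz-/- and Aldh1a1 in each WT library. In WT library 3 the lead was narrow, with Aldh1a1 at 0.401 FPKM and Aldh1a3 at 0.335 FPKM. By annotated exon length these are roughly 28.3 and 22.1 reads, so the order in WT rests on few reads. The sum was 3.03, 2.75 and 2.53 FPKM in the libraries labelled Prkcz-/-, against 1.04, 0.971 and 0.736 FPKM in WT.

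**Figure D2:**
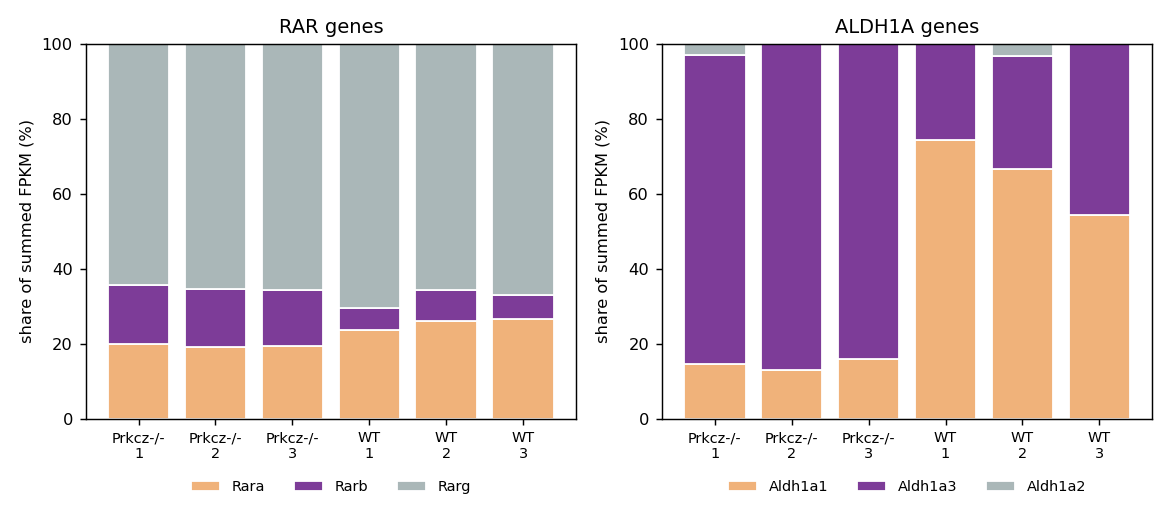
Share of each gene, in percent, in the summed FPKM of the 3 RAR genes (left panel) and the 3 ALDH1A genes (right panel), with 1 bar per library and the libraries labelled Prkcz-/- left of those labelled WT. Rarb takes 15.0% to 15.6% in the libraries labelled Prkcz-/- and 5.92% to 8.39% in WT, and Aldh1a3 takes 82.4% to 86.9% in the libraries labelled Prkcz-/- and 25.6% to 45.5% in WT.

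Rarres1 encodes a membrane protein, also known as TIG1, that was found as a gene induced by the synthetic retinoid tazarotene in human skin cells. It showed the highest fold of the set, with 20.2, 20.5 and 20.9 FPKM in the libraries labelled Prkcz-/- and 0.0467, 0.0516 and 0.0933 FPKM in WT. The WT values step as 1, 1 and 2 reads. Taking the smallest step as 1 read, the libraries labelled Prkcz-/- held 1288 reads and the WT libraries 4, a ratio of 319 with an exact 95% interval of 124 to 1170 that covers counting error only. The log2 change was 5.22 (SE 0.075, limma adjusted p = 3.45e-09), and it ranged from 4.34 to 6.99 over the other settings, mainly with the pseudocount. The gene (chromosome 3, 67478972 to 67515523, minus strand) overlaps no other annotated gene. Rarres2 encodes chemerin, a secreted attractant of immune cells and an adipokine. It was low in both groups, at 0.739, 0.435 and 0.672 FPKM in the libraries labelled Prkcz-/- and 0.223, 0.370 and 0.446 FPKM in WT. The groups overlapped, since library 2 labelled Prkcz-/- fell below WT library 3, and the exact permutation test of its log2 values gave p = 0.2. With no filter on low values its log2 change was 0.40 (limma adjusted p = 0.0621). Rarres2 (chromosome 6, 48569696 to 48572789, minus strand) overlaps Lrrc61 on the other strand. The chemerin receptor Cmklr1 measured 0.0707 to 0.166 FPKM in the libraries labelled Prkcz-/- and at most 0.0709 FPKM in WT.

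Lxn, which encodes the carboxypeptidase inhibitor latexin, is related in sequence to Rarres1 and lies next to it on the same strand of chromosome 3 (67457998 to 67463926). Lxn measured 338.2, 338.0 and 338.5 FPKM in the libraries labelled Prkcz-/- and 43.2, 42.7 and 43.2 FPKM in WT, and rose by 2.96 on the log2 scale (SE 0.027, limma adjusted p = 5.87e-10). It overlaps Gfm1 on the other strand, which fell by 0.18 on the log2 scale (limma adjusted p = 0.00370, and 0.0573 after rescaling without short RNA genes). The other measured genes within 600 kb of Rarres1 were looked up after their values were seen. Of 8 such genes with Rarres1 and Lxn included, all of them tested, 7 were higher and 1 was lower. Across all tested genes 31.5% were higher and 37.2% lower. The window was centred on the gene with the highest fold of the set. Rarres1 and Lxn count among the 7, so the shares describe the locus and test nothing. Of 23 uniquely named annotated genes in the window, 15 had no row. Shox2, a homeobox transcription factor of limb development, averaged 44.1 ± 1.22 FPKM in the libraries labelled Prkcz-/- and 0.666 ± 0.260 FPKM in WT (SD, n = 3 each; log2 change 5.28, SE 0.15, limma adjusted p = 5.10e-08). Mlf1 and Rsrc1 rose by 0.86 each on the log2 scale, and Mfsd1 and Schip1 by 0.42 and 0.34 (limma adjusted p of 9.99e-04 or less for the 4).

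**Figure D3:**
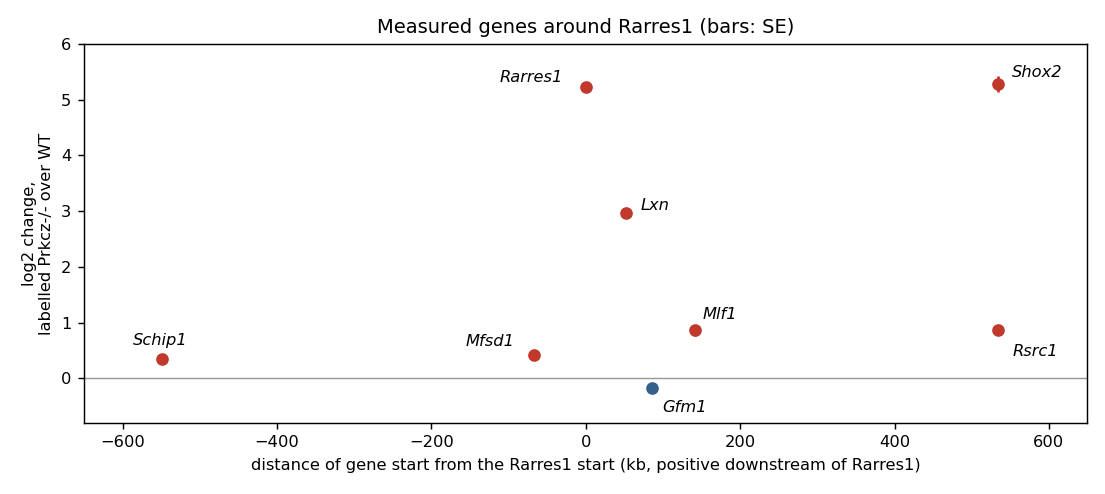
The log2 change (labelled Prkcz-/- over WT, bars for SE) of the 8 measured genes around Rarres1 against the distance of their starts from that of Rarres1 in kb, positive downstream of Rarres1, with red for higher and blue for lower. Rarres1 at 5.22, Shox2 at 5.28 and Lxn at 2.96 stand above the others, which lie between -0.18 and 0.86.

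In the order of mean FPKM, the libraries labelled Prkcz-/- ran Crabp1, Rarg, Rarres1, Rara, Rarb, Aldh1a3, Rarres2, Aldh1a1 and Aldh1a2, and those of WT ran Crabp1, Rarg, Rara, Rarb, Aldh1a1, Rarres2, Aldh1a3, Rarres1 and Aldh1a2. Neighbours in that order overlapped in their library ranges only for Rarres2 and Aldh1a1 in the libraries labelled Prkcz-/-, and in WT for Aldh1a1 with Rarres2 and Rarres2 with Aldh1a3. Rarres1 thus ranked 3 in the libraries labelled Prkcz-/- and 8 in WT. By Euclidean distance of log2(FPKM + 0.5) over the 6 libraries, the tested genes nearest to Rarres1 were Hoxc9 (distance 0.380) and Hoxc6 (0.395), homeobox genes that were listed at 0 in 3 and 2 of the 3 WT libraries. Those nearest to Crabp1 were Timp3 (0.936) and Lxn (1.19).

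The rest of the pathway was taken from lists of retinoid genes. Of 66 genes, 59 had a row and 35 were tested: 20 were higher, 6 lower and 9 not called, which is 57.1% and 17.1% against 31.5% and 37.2% of all tested genes. Their median log2 change was 0.37, against -0.04 over all tested genes. These lists too were chosen with earlier results of these data known, so the shares are descriptive. After rescaling without short RNA genes, 21 were higher and 3 lower, and of all 12136 genes then tested 4427 were higher and 3659 lower, so the balance over all genes turned as well.

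Most of the tested genes known to respond to retinoic acid in other systems were higher. Of 15 listed, 9 were tested. Of these, 8 were higher and 0 lower, beside 31.5% and 37.2% of all tested genes. No gene of the list was lower at an unadjusted p under 0.05 either. The median log2 change of the 9 was 1.41. The list was chosen with earlier results of these data known, so the shares describe it and test nothing. Whether these genes respond to retinoic acid in these fibroblasts was not measured. Tshz1, a zinc finger homeobox factor, measured 36.0, 35.6 and 35.1 FPKM in the libraries labelled Prkcz-/- and 7.67, 8.12 and 7.71 FPKM in WT (log2 change 2.11, SE 0.042, limma adjusted p = 1.06e-08). Rai14, named for its induction by retinoic acid, measured 58.2, 56.3 and 59.0 FPKM in the libraries labelled Prkcz-/-, against 17.1, 18.9 and 18.7 FPKM in WT (log2 change 1.64, SE 0.047, limma adjusted p = 6.01e-08). Tgm2, tissue transglutaminase, averaged 16.2 ± 0.125 FPKM in the libraries labelled Prkcz-/- and 5.82 ± 0.877 FPKM in WT (SD, n = 3 each). Crabp2 and Dhrs3 also belong to this list, so the list shares genes with the others. The 3 CYP26 genes that clear retinoic acid were under the filter, and of the 2 tested genes in the list of chemerin receptors and Rarres1 relatives, Lxn was higher and Agbl2 was not called.

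Among genes that interconvert retinol and retinal, 5 of 11 tested were higher and 2 lower, or 45.5% and 18.2% beside 31.5% and 37.2% of all tested genes, which also stand beside the counts of the next lists. Rdh10, which makes retinal for retinoic acid synthesis, was not called, with 6.13, 5.56 and 5.31 FPKM in the libraries labelled Prkcz-/- and 5.20, 5.64 and 5.98 FPKM in WT (log2 change 0.01, SE 0.078, limma adjusted p = 0.885). Dhrs3, which turns retinal back into retinol and is itself a known target of retinoic acid, rose, with 28.9, 30.4 and 26.1 FPKM in the libraries labelled Prkcz-/-, against 9.34, 9.73 and 7.76 FPKM in WT (log2 change 1.62, SE 0.091, limma adjusted p = 2.11e-06). Adh7, an alcohol dehydrogenase active on retinol, measured 2.32, 2.75 and 2.26 FPKM in the libraries labelled Prkcz-/- and 0.0301, 0.133 and 0.120 FPKM in WT (log2 change 2.31, SE 0.13, limma adjusted p = 2.56e-06). Like Rarres1, Adh7 and Aldh1b1 passed the filter only through the group in which they were high. Rdh5 also rose, to 4.02 ± 0.519 FPKM in the libraries labelled Prkcz-/- against 2.08 ± 0.495 FPKM in WT (SD, n = 3 each; limma adjusted p = 0.00195). The 2 lower genes were the more abundant Adh5 and Rdh11. Adh5 averaged 60.2 FPKM in the libraries labelled Prkcz-/- and 74.6 FPKM in WT (log2 change -0.30, limma adjusted p = 7.29e-04). For Rdh11 the means were 22.1 and 24.9 FPKM (log2 change -0.17, limma adjusted p = 0.0459), and its groups overlapped. In the uptake, transport and storage list, 3 of 4 tested genes were higher and 1 lower. Of the other aldehyde dehydrogenases, 2 of 3 tested were higher and 0 lower, also at an unadjusted p under 0.05. Aldh1b1, a mitochondrial enzyme, averaged 1.29 ± 0.166 FPKM in the libraries labelled Prkcz-/- and 0.391 ± 0.188 FPKM in WT, and Aldh1l2, a mitochondrial enzyme of folate metabolism, 51.5 ± 2.12 FPKM in the libraries labelled Prkcz-/- and 26.6 ± 1.38 FPKM in WT (SD, n = 3 each).

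Receptor partners and cofactors changed in both directions. Of 10 tested genes, 5 were higher and 3 lower, beside 31.5% and 37.2% of all tested genes, and none passed a log2 change of 1 in size. Rxra, an RXR partner of the RARs, rose, with 15.9, 15.6 and 16.3 FPKM in the libraries labelled Prkcz-/- and 12.0, 13.0 and 12.2 FPKM in WT (log2 change 0.35, SE 0.048, limma adjusted p = 3.37e-04). Rxrb was not called, at 19.9 ± 0.611 FPKM in the libraries labelled Prkcz-/- and 20.8 ± 1.05 FPKM in WT (SD, n = 3 each; limma adjusted p = 0.315). Ncor1, a corepressor gene, rose by 0.42 on the log2 scale, to 41.7 ± 1.27 FPKM in the libraries labelled Prkcz-/- against 31.0 ± 0.337 FPKM in WT (SD, n = 3 each; limma adjusted p = 2.45e-05). The coactivator genes Ncoa1 and Ncoa2 rose by 0.91 and 0.72 on the log2 scale (limma adjusted p = 6.03e-05 and 2.52e-05).

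**Figure D4:**
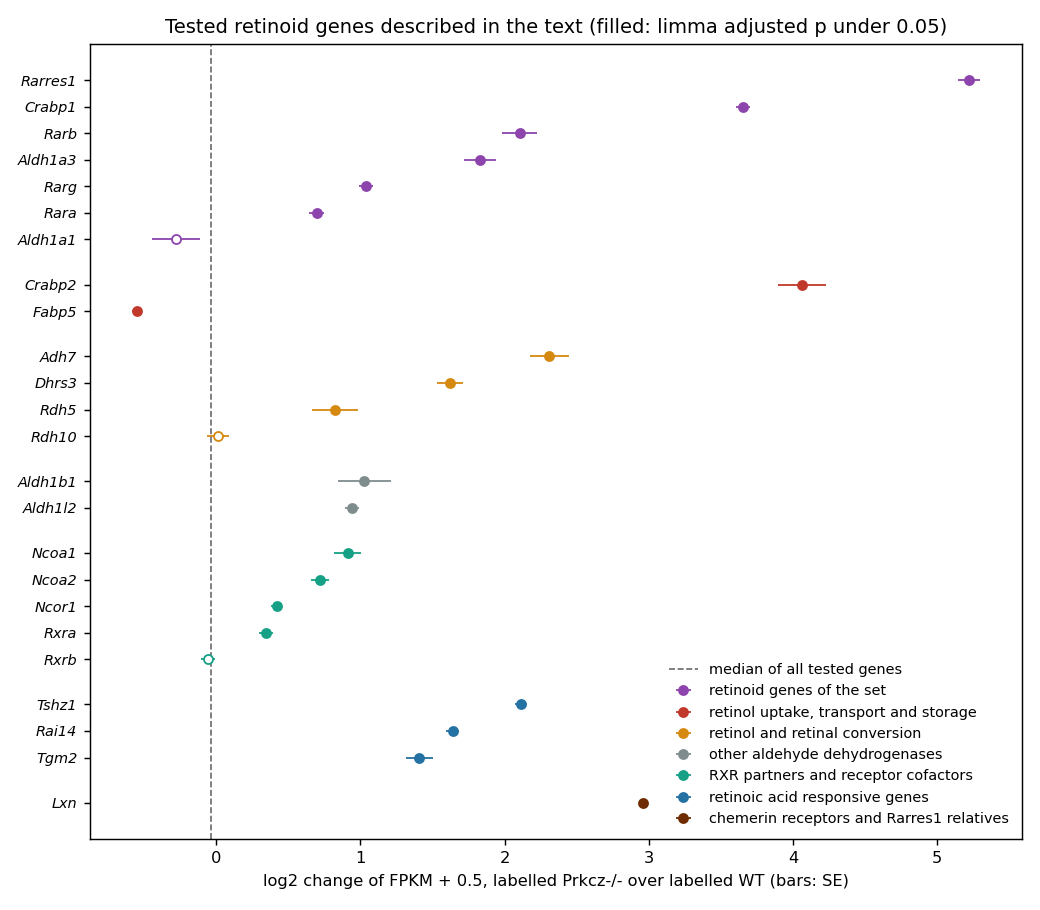
The log2 change of FPKM + 0.5 (labelled Prkcz-/- over WT, bars for SE) of the 7 tested genes of the set and 17 of the 35 tested genes of the pathway lists, each gene drawn once under the first list that holds it, with filled points for limma adjusted p under 0.05. The dashed line marks the median of all tested genes at -0.04, and Rarres1, Crabp2, Crabp1 and Lxn lie furthest to the right.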

How the data were processed

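Per the labels, polyadenylated RNA of 6 libraries was sequenced with single 76-base reads from a directional kit. The submitters' processing notes name STAR, DESeq2 and mm10. The sources used here give no tool roles, versions, annotation or strand setting. The table deposited by the authors holds FPKM for 16874 genes. Because FPKM is a normalized value, a linear model was used: the 12130 genes averaging 0.5 FPKM or more over all libraries were compared on log2(FPKM + 0.5) with limma 3.58.1 in R 4.3.3 (lmFit, eBayes with a variance trend, two-sided, Benjamini-Hochberg adjusted p under 0.05), without a block for the replicate number. Same-numbered libraries deviated together with r of 0.00827 to 0.0599 across genes, so the numbers were not taken as pairs. Single genes also had an exact permutation test (scipy 1.17.1).

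The fit was also tested on simulated data. Changes were placed there only in genes with WT levels above those of Rarres1, Aldh1a3 and Aldh1a1. The simulation therefore cannot speak for calls at such low levels. Read numbers are approximations from low-value steps and exon lengths of GENCODE M21 (GRCm38). The 9 genes and all lists were chosen with earlier results of these data known. Named genes were, from each list, up to 4 called with a log2 change of at least 1, plus Crabp2, Cyp26b1, Dhrs3, Rdh10, Rxra, Lxn and Cmklr1. Some listed genes enter the counts but are not reported here by name. Prkcz was named to check the labels. Fabp5, Tgm2, Rdh5, Adh5, Rdh11, Aldh1l2, Rxrb, Agbl2, Ncor1, Ncoa1, Ncoa2 and the low genes of the closing section were named after their values were seen. The alternatives were other pseudocounts, filters, scalings and variance models, the replicate block and leaving out each library. Protein sequences were not used here.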

Additional observations from a re-analysis of the deposited data

How the results depend on the processing

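Of the 7 tested retinoid genes, 6 kept their direction and call under all 15 alternatives. Aldh1a1 was the exception, lower and called at -0.72 with quantile normalization and at -0.42 without WT replicate 3, so that 1 gene of the set was then lower instead of 0; leaving out each library in turn gave 0 to 1 such genes, and log2 changes of -0.42 to -0.25 for Aldh1a1, which fell below the filter and had no value without WT replicate 1, without WT replicate 2 or with a minimum mean of 1 FPKM. The cause was not tested. Log2 changes ranged from 1.36 to 2.62 for Aldh1a3 and from 1.96 to 2.25 for Rarb. The pathway genes called lower numbered 3 instead of 6 after rescaling without short RNA genes, a scaling that raises values labelled Prkcz-/- relative to WT (median over all genes 0.04). Genes that were not called changed sign: Rdh10 to -0.08 with quantile normalization, and to between -0.04 and 0.06 when a library was left out (below 0 without replicate 1 of either group), and Rxrb to 0.02 after rescaling without short RNA genes. With the replicate block, the call counts over all genes were 3718 higher and 4375 lower, 19 and 6 for the pathway lists, and 6 higher of the set. Values under about 0.5 FPKM rest on few reads, which limits Rarres2, Aldh1a2 and Aldh1a1.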

Other observations

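Several retinoid genes below the filter of 0.5 FPKM were also separated by label, at levels of few reads and with no test. Of 24 pathway genes under the filter, 8 had each library labelled Prkcz-/- above each WT library and 0 had them below. Of all 4744 genes under the filter, 18.0% had them above and 6.58% below. The lists were chosen with earlier results of these data known, so these shares are descriptive. Cyp26b1, which breaks down retinoic acid in many mesenchymal tissues, measured 0.429, 0.330 and 0.516 FPKM in the libraries labelled Prkcz-/- and 0.0139 FPKM in WT library 2, and was listed at 0 in the other WT libraries. Its relative Cyp26a1, whose promoter holds the repeat printed in the report, measured 0.158, 0.0348 and 0.0718 FPKM in the libraries labelled Prkcz-/- and 0.0791 FPKM in WT library 2, with 0 listed in the other WT libraries, so the groups overlapped. Stra6, the retinol uptake receptor, measured 0.0971, 0.128 and 0.0883 FPKM in the libraries labelled Prkcz-/-, with 0 listed for each WT library. Bco2, a carotenoid-cleaving enzyme of mitochondria, measured 0.499, 0.440 and 0.363 FPKM in the libraries labelled Prkcz-/-, against 0.0301 and 0.133 FPKM in WT libraries 1 and 2 and 0 in WT library 3.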
